A study of Mus musculus with 2 samples.

Results

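Genes of the Wnt signalling system at the cell surface were compared between 2 mouse RNA-seq libraries, 1 from Trappc9 knockout (KO) and 1 from wild-type (WT) mice. The set comprised every protein-coding Wnt, Frizzled, Sfrp, Dkk and R-spondin gene of the table (symbols beginning Wnt, Fzd, Sfrp, Dkk or Rspo followed by a digit), with Frzb, Wif1, Lrp5, Lrp6 and Axin2. This gave 46 genes of the 54532 listed, 22046 of which were protein-coding. They were 19 Wnt ligands, 10 Frizzled receptors, 2 LRP co-receptors, 10 secreted antagonists, 4 R-spondins and Axin2, and lay on 15 chromosomes.

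The mice were 3 to 4 weeks old, and abdominal fat pads of 3 animals per genotype were collected. The titles speak of stem cells from adipose tissue, the design text of cell pellets spun down after collagenase digestion, and the extraction label of frozen pads, and the sources used here do not settle which it was. They also leave out whether the animals were pooled and how the Trappc9 knockout allele was made. With 1 library per genotype no difference below has a replicate check and no p-value is given.

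Wnt proteins are secreted, lipid-modified ligands that bind Frizzled receptors. Together with the LRP5 or LRP6 co-receptor they keep beta-catenin from being destroyed, and beta-catenin then acts with TCF/LEF factors on target genes, Axin2 among them. Secreted Frizzled-related proteins, Frzb and Wif1 bind Wnts, several Dickkopf (Dkk) proteins bind the LRP co-receptors, and R-spondins raise the amount of Frizzled at the cell surface. In adipose precursors, beta-catenin signalling started by ligands such as Wnt10b is known to hold back fat cell formation.

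The library labelled KO held 14783728 fragments and the library labelled WT 13705193, recovered from the deposited FPKM values (fragments per kilobase of gene length, scaled to the library) and gene lengths. For Trappc9 itself (ENSMUSG00000047921, mm10 chromosome 15, bases 72589620 to 73061204) the level was 12.6 FPKM in the library labelled KO, against 9.94 FPKM in the library labelled WT, a ratio of 1.27 with a 95% counting interval of 1.17 to 1.37, which covers counting error only, as do all intervals here. The gene-level value therefore went against the KO label, although it covers the whole gene and cannot show a small deletion or a stop codon, so the genotypes below are the labels' only. Progenitor markers were present, with Pdgfra at 30.7 and 34.2 FPKM in the libraries labelled KO and WT, and the adipocyte hormone genes Adipoq (0.51 and 2.30 FPKM) and Lep (0.083 and 0.063 FPKM) were low. The epididymal gene Gpx5 stood at 11686 and 10039 FPKM.

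Other cell types were followed with 9 fixed marker lists, of which no gene was at 0 in both libraries. All 6 proliferation genes were lower beyond counting error in the library labelled KO (summed 26.6 and 55.6 FPKM in the libraries labelled KO and WT). Of 10 progenitor and fibroblast genes 8 were lower and 2 higher (1016 and 1380 FPKM), and of 8 adipocyte genes, 6 of them measured (averaging 1 FPKM or more), 3 measured ones were lower and none higher (15.3 and 24.1 FPKM over the 8). Of 10 epididymal epithelium genes 9 were higher and 1 lower (23220.5 and 16891 FPKM), and of 7 germ cell genes 5 were higher and 1 lower (149.7 and 29.6 FPKM). The other lists were mixed, with 2 of 6 mesothelial genes higher and 4 lower (156 and 158 FPKM), 4 of 6 endothelial genes higher and 1 lower (39.9 and 34.1 FPKM), and 3 of 6 smooth muscle and pericyte genes higher and 2 lower (661 and 657 FPKM). Of 6 leukocyte genes (35.5 and 36.2 FPKM), 4 were measured and none of these was called as deposited. By the same measure 24.6% of the 13084 protein-coding genes averaging 1 FPKM or more stood higher and 17.6% lower. After rescaling to TPM (each library to the same sum), 1 endothelial gene was higher and 1 lower, 2 smooth muscle genes were higher and 2 lower, and 3 leukocyte genes were lower. In bulk RNA, fewer cells of a type and less RNA per cell cannot be told apart.

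Proximal promoters are shown for 4 genes that the values below turn on: Wnt11, Wnt7a and Dkk1, which were higher in the library labelled KO beyond counting error, and Wnt10b, the ligand furthest lower among those measured. Each runs 5′ to 3′ on the gene's strand from 250 bases before to 50 after the start in RefSeq (GRCm38.p6), and capitals mark the motifs CTTTGAT (a TCF/LEF core) and TATAAA on either strand. The windows are chr7:98834862-98835161 (plus strand) for Wnt11, chr6:91411304-91411603 (minus) for Wnt7a, chr19:30549447-30549746 (minus) for Dkk1 and chr15:98778101-98778400 (minus) for Wnt10b.
Wnt11: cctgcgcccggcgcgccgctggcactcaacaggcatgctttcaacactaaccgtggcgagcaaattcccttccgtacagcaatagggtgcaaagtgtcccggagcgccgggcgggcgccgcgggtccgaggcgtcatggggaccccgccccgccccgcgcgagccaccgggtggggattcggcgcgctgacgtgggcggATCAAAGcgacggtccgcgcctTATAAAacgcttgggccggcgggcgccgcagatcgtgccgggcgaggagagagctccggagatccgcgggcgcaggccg
Wnt7a: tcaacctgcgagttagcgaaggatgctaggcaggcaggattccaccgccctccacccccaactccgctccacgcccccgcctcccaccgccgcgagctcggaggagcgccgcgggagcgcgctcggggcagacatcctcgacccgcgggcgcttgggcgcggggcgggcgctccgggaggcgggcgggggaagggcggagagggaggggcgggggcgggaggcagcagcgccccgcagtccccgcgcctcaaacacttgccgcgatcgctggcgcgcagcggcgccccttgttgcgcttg
Dkk1: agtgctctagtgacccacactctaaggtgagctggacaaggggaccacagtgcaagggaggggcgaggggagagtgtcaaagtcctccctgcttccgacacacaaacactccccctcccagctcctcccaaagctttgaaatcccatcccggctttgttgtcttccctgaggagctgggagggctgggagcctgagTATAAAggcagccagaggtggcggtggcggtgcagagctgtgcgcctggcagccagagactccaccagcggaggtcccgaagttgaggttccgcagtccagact
Wnt10b: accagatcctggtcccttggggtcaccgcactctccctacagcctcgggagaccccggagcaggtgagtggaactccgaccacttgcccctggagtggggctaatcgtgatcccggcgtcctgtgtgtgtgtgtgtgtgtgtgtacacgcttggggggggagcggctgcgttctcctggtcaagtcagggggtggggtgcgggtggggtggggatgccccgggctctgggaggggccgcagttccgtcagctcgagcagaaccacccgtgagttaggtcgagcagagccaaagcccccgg
The Wnt11 window held CTTTGAT on the opposite strand, read here as ATCAAAG, and TATAAA beginning 29 bases before the start. The Dkk1 window held TATAAA beginning 54 bases before the start. Neither motif was in the Wnt7a or Wnt10b window. A second RefSeq start of Wnt11, at chr7:98838595-98838894, had neither.

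Promoter windows were taken for 30 of the 46 genes, 33 windows in all. The other 16 had none, among them Fzd8 and Wnt8a on chromosome 18, which was left out. Wnt5a, Fzd6, Lrp5, Lrp6 and Sfrp1, on other chromosomes, were also without a window. The shares below do not cover these 16 genes. CTTTGAT was in 2 of the 33 (6.06%), those of Wnt11 and of 1 of 3 Wnt5b starts. It was in 3.73% of all 32851 windows in the table and in 2.63% of those of protein-coding genes averaging 1 FPKM or more. TATAAA was in 5, or 15.2% (Wnt11, Dkk1, Dkk2, Fzd1 and Wif1), against 13.6% of all windows and 7.35% of those of such protein-coding genes. The windows were rich in CG dinucleotides, with a median of 27 per 300 bases and a range of 4 to 58, against a median of 7 over all windows and of 20 over the 13097 windows of protein-coding genes that averaged 1 FPKM or more. Among the 4 printed, Wnt11 held 45 CG, Wnt7a 42, Wnt10b 18 and Dkk1 9, so the higher genes printed lay on both sides of the median of 27. Wnt16 and Wnt3, also higher as deposited, held 10 and 24 CG, and Fzd6 had no window. These matches describe the letters of the windows and not binding.

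Of the 46 genes, 29 had a mean of at least 1 FPKM over both libraries and are called measured here, and the other 17 are given by their fragments further below. Differences are log2((KO + 1)/(WT + 1)) of FPKM. The median over the 29 measured genes was −0.13, against 0.02 over all 13084 measured protein-coding genes, and 21 of the 29 were below 0, against 45.3% of all measured genes. Wnt10b and Sfrp4 were at least 1.5-fold lower and none was at least 1.5-fold higher, where 2.11% and 2.79% of all measured genes were. Sfrp4 passed the filter only through its level in the library labelled WT. None of the 29 was 2-fold lower or higher, where 0.29% and 0.948% of all measured genes were. By the exact counting interval of the FPKM ratio, 15 were lower and 2 higher beyond counting error, where 17.6% and 24.6% of all measured genes were. The 2 higher genes were Wnt11 and Fzd6. The middle 90% of all measured genes ran from −0.41 to 0.44, and Wnt10b, Fzd1, Fzd10, Sfrp2 and Sfrp4 lay below that range and Wnt11 above it.

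**Figure D1:**
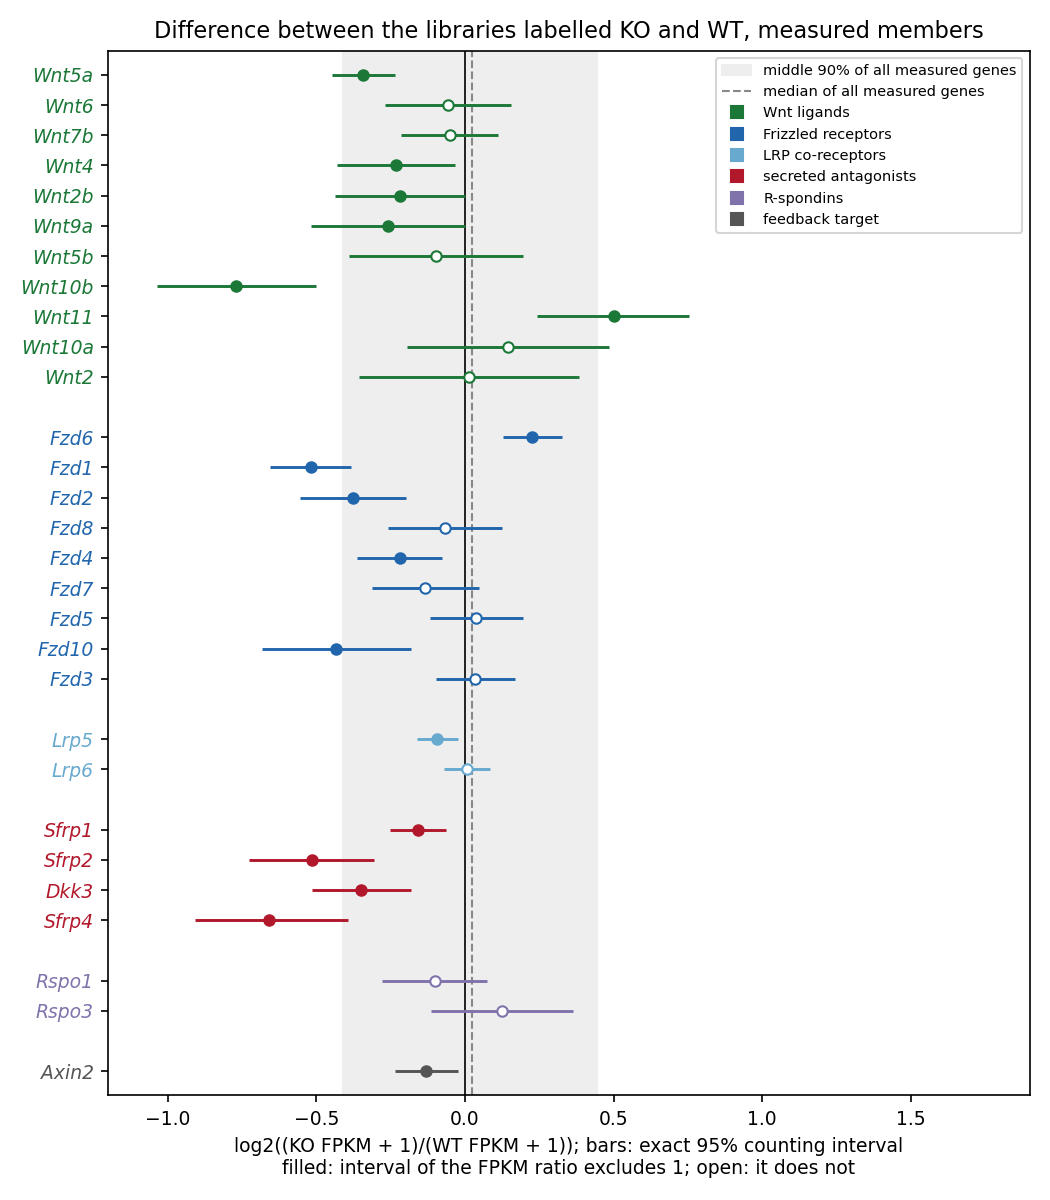
Log2((KO + 1)/(WT + 1)) of FPKM for the 29 measured genes, 1 point each, coloured by role, with exact 95% counting intervals; filled points have an interval of the FPKM ratio that excludes 1. The grey band is the middle 90% of all measured protein-coding genes, and Wnt10b, Fzd1, Fzd10, Sfrp2, Sfrp4 and Wnt11 lie outside it.

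The scaling between libraries bears on the smaller of these differences. After rescaling to TPM, the median of all measured genes moved by −0.18 and 5 measured genes changed sign, namely Wnt2, Fzd3, Fzd5, Lrp6 and Rspo3, none of them beyond counting error as deposited. Fzd6, at 0.03, was no longer higher beyond counting error, while the 15 lower calls and that of Wnt11 remained and 6 further genes were lower (Wnt6, Wnt7b, Fzd7, Fzd8, Lrp6 and Rspo1). Of all measured genes, 7.85% were higher and 48.5% lower under TPM. Taking off the median of all genes removes by construction any scaling of a whole library, so it is no separate check on the calls. With that median taken off under TPM, the split was 2 higher and 15 lower, where 21.3% and 20.5% of all measured genes were.

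Among the ligands, 5 of the 11 measured were lower and 1 higher beyond counting error, with a median log2 ratio of −0.10. Wnt10b, a ligand that restrains fat cell formation, stood apart from the other ligands in size (ENSMUSG00000022996, chromosome 15, 98770712 to 98778150). The library labelled KO had 1.60 FPKM of it, or 78 fragments, and the library labelled WT 3.45 FPKM, or 166 fragments. The log2 ratio was −0.77 and the FPKM ratio 0.465, with a counting interval of 0.351 to 0.613. Of the 6 proliferation markers, 6 were lower as well, and of the 10 progenitor and fibroblast markers 8, among them Cd34 (27.4 and 52.6 FPKM in the libraries labelled KO and WT) and Dlk1 (4.35 and 8.80 FPKM). Dlk1 and Cd34 had the lowest ratios of that list, 0.494 and 0.520, while Pdgfra had 0.897 and Dcn 0.941. Ly6a (ratio 1.17) and Dpp4 (1.14) were higher as deposited, though not under TPM. What part proliferating cells, progenitors and fibroblasts had in the Wnt10b value was not tested.

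Wnt11, a ligand known mainly for signalling without beta-catenin, went the other way (ENSMUSG00000015957, chromosome 7, 98835112 to 98855195). The library labelled KO had 139 fragments of it (2.35 FPKM), against 80 in the library labelled WT (1.37 FPKM). The FPKM ratio was 1.72, with an interval of 1.30 to 2.29, and the log2 ratio on the +1 scale 0.50, short of the 1.5-fold line. Of the measured ligands it was the one with an interval wholly above 1.

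Wnt5a, which acts largely through pathways other than beta-catenin and had the highest level of all Wnts in each library, was at 9.97 FPKM in the library labelled KO and 12.9 FPKM in the library labelled WT. With 1116 and 1430 fragments behind these values its ratio was 0.773 (0.714 to 0.836), and it accounted for 20.8% and 23.8% of the summed ligand FPKM. Its closest relative, Wnt5b, was at 2.82 and 3.09 FPKM in the libraries labelled KO and WT, a ratio of 0.913 whose interval (0.696 to 1.20) included 1. The deficit of Wnt5a was thus larger than counting error and that of Wnt5b was not, though the difference between the pair was not tested.

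Wnt4, Wnt2b and Wnt9a were lower as well. Wnt4, needed for development of the kidney and female genital tract, was at 4.35 FPKM in the library labelled KO and 5.29 FPKM in the library labelled WT (ratio 0.823). Wnt2b was at 3.29 and 4.00 FPKM and Wnt9a at 2.69 and 3.41 FPKM. The upper bounds of these last intervals, both 0.999, reached almost to 1, so the calls of Wnt2b and Wnt9a rest on the edge of counting error.

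No difference beyond counting error was seen for the other measured ligands. Wnt6 was at 9.54 FPKM in the library labelled KO and 9.95 FPKM in the library labelled WT, and Wnt7b at 6.74 and 7.02 FPKM. Wnt10a, which like Wnt6 and Wnt10b has been found to restrain fat cell formation in cultured precursors, was at 1.78 and 1.52 FPKM, a ratio of 1.18 (0.804 to 1.73). Wnt2 was at 1.09 and 1.06 FPKM. The 3 ligands with that shared role therefore did not differ alike, with ratios of 0.958 for Wnt6, 1.18 for Wnt10a and 0.465 for Wnt10b.

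The order of the ligands changed in its middle. Wnt5a, Wnt6, Wnt7b, Wnt4 and Wnt2b took ranks 1 to 5 in both libraries, and Wnt2 was 11 in both. Wnt10b was 10 in the library labelled KO and 6 in the library labelled WT, and Wnt11 was 8 and 10. In the library labelled KO, Wnt5a and Wnt6 did not differ beyond counting error (level ratio 1.05, 0.920 to 1.19), nor did any neighbours from Wnt2b at rank 5 down to Wnt2. In the library labelled WT, the neighbours without such a difference were Wnt2b, Wnt10b, Wnt9a and Wnt5b in a row, and Wnt10a, Wnt11 and Wnt2 in a row.

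Neighbouring Wnt genes on one chromosome did not share a level. Wnt6 and Wnt10a, 6.19 kb apart on chromosome 1 and on the same strand, were at 9.54 and 1.78 FPKM in the library labelled KO and 9.95 and 1.52 FPKM in the library labelled WT. Wnt10b lies 11.7 kb from Wnt1, which had 0 fragments in the library labelled KO and 1 in the library labelled WT. Wnt9a lies 16.2 kb from Wnt3a, with 3 and 6 fragments in the libraries labelled KO and WT, and Wnt9b 24.3 kb from Wnt3. In each of these last 3 pairs the genes are on opposite strands, and 1 or both were too low to be measured.

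**Figure D2:**
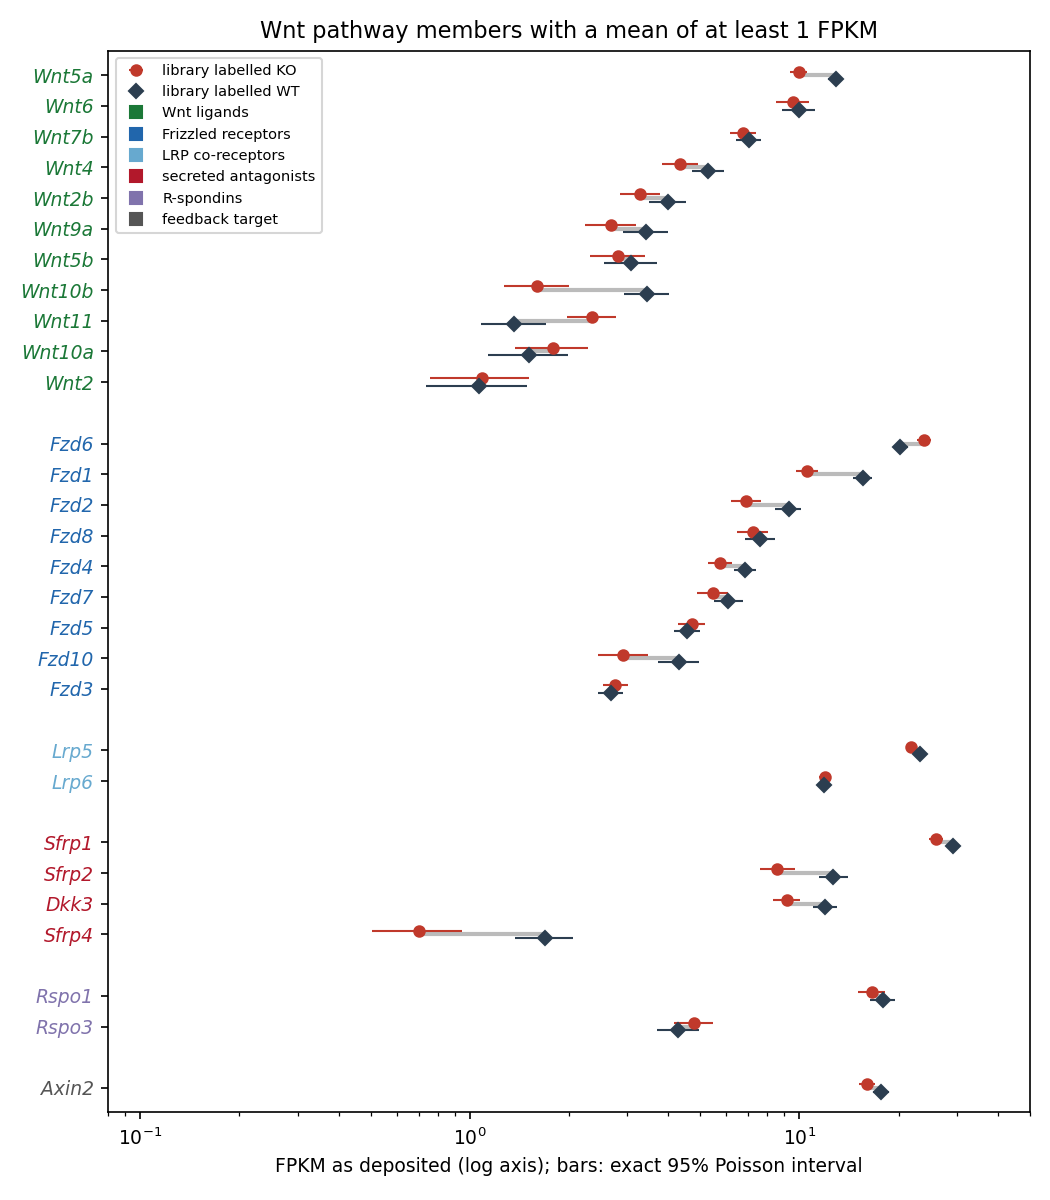
Deposited FPKM (log axis) of the 29 measured genes in the library labelled KO (circles) and the library labelled WT (diamonds), with exact 95% Poisson intervals of the recovered fragments. The widest gaps are those of Wnt10b and Sfrp4, both lower in the library labelled KO, and Wnt11 lies higher there.

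Of the 9 measured Frizzled receptors, 4 were lower and 1 higher beyond counting error (median −0.13). Fzd1 showed the most negative log2 ratio, −0.52 (ENSMUSG00000044674, chromosome 5, 4753839 to 4758035). Its 633 fragments in the library labelled KO gave 10.5 FPKM and its 924 in the library labelled WT 15.5 FPKM, a ratio of 0.678 (0.612 to 0.751). Its close relatives Fzd2 and Fzd7 were at 6.91 and 5.46 FPKM in the library labelled KO, against 9.27 and 6.09 FPKM in the library labelled WT. All 3 of this subfamily were below 0, but the interval of Fzd7 (0.774 to 1.04) included 1. Their sum was 22.9 FPKM in the library labelled KO and 30.9 FPKM in the library labelled WT.

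Fzd6, which belongs with Fzd3 to a subfamily known for tissue polarity, was the Frizzled gene with the highest level and the only Frizzled that was higher beyond counting error. It was at 23.9 FPKM in the library labelled KO (1644 fragments) and 20.2 FPKM in the library labelled WT (1381 fragments), a ratio of 1.18 (1.10 to 1.27), which was not beyond counting error after rescaling to TPM. Fzd3 was at 2.76 and 2.67 FPKM in the libraries labelled KO and WT. Fzd6 made up 33.9% of the summed Frizzled FPKM in the library labelled KO and 26.2% in the library labelled WT, and Fzd1 15.0% and 20.1%. The general epithelial markers of the epididymal list had ratios of 0.957 for Epcam (216 and 226 FPKM in the libraries labelled KO and WT), 1.05 for Krt8 (258 and 246 FPKM) and 1.11 for Krt18 (255 and 230 FPKM), and the other 7 genes of that list were higher, under TPM too. Under TPM, Epcam and Krt8 were lower and Krt18 was not beyond counting error. What part epithelial cells had in the Fzd6 value was not tested.

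The remaining receptors held 2 further lower genes. Fzd4, the receptor of norrin on endothelium, was at 5.75 FPKM in the library labelled KO and 6.86 FPKM in the library labelled WT (ratio 0.839), while the endothelial markers Pecam1 and Cdh5 were at 9.50 and 13.6 FPKM in the library labelled KO and 7.45 and 11.9 FPKM in the library labelled WT, higher as deposited but not under TPM. A further endothelial marker, Tek, was lower in each scaling, at 3.99 FPKM in the library labelled KO and 5.06 FPKM in the library labelled WT (ratio 0.788). Sox17 was higher in each scaling, at 3.84 and 1.83 FPKM (ratio 2.09). Kdr (ratio 1.12) was higher as deposited only, and Emcn (ratio 1.19) was not beyond counting error. What part endothelial cells had in the Fzd4 value was not tested. Fzd10 was at 2.93 and 4.30 FPKM in the libraries labelled KO and WT (ratio 0.680, 0.543 to 0.850). Fzd5 and Fzd8, a subfamily of their own, were at 4.71 and 7.21 FPKM in the library labelled KO and 4.56 and 7.60 FPKM in the library labelled WT, both within counting error. Under TPM Fzd8 was lower.

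The co-receptors differed little. Lrp5 was at 21.8 FPKM in the library labelled KO and 23.3 FPKM in the library labelled WT, from 3034 and 3213 fragments. At that depth a ratio of 0.935 (0.890 to 0.983) was beyond counting error. Lrp6 was at 11.9 FPKM in both, with a ratio of 1.01 and an interval of 0.949 to 1.07, which became lower beyond counting error under TPM.

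Of the 10 secreted antagonists, 6 had a mean under 1 FPKM and are given further below. Of those 6, 1 was higher beyond counting error and none was lower. Sfrp4 passed the filter only through its level in the library labelled WT. The 4 measured secreted antagonists were all lower beyond counting error, under TPM too, with a median log2 ratio of −0.43. Sfrp1, with the highest level of any gene in the set, was at 26.0 FPKM in the library labelled KO and 29.2 FPKM in the library labelled WT, the smallest of these differences (ratio 0.893, 0.835 to 0.956). Sfrp2, a secreted Frizzled-related protein of stromal cells, was at 8.57 FPKM from 264 fragments and 12.7 FPKM from 387 fragments (ratio 0.676, 0.575 to 0.792). An antisense gene over 16.1% of its exonic bases, Gm26771, was at 0.19 and 0.26 FPKM. Dkk3, a divergent Dickkopf protein, was at 9.16 and 11.9 FPKM (ratio 0.767, 0.676 to 0.870). Sfrp4 had the lowest ratio of all measured genes in the set.

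Sfrp4 (ENSMUSG00000021319, chromosome 13, 19623104 to 19632994) had 42 fragments in the library labelled KO, or 0.70 FPKM, and 100 in the library labelled WT, or 1.69 FPKM. Its FPKM ratio was 0.416 (0.283 to 0.602) and its log2 ratio −0.66. With a mean of 1.20 FPKM it lay just inside the filter, as did Wnt2 with 1.07 FPKM, while Dkk2, with a mean of 0.67 FPKM, was the nearest outside. In the same libraries the fibroblast genes Col1a1 (377 and 531 FPKM in the libraries labelled KO and WT), Col3a1 (312 and 481 FPKM) and Lum (29.2 and 38.2 FPKM) were lower too. Of the same list, Ly6a (78.9 and 67.5 FPKM) and Dpp4 (21.5 and 18.9 FPKM) were higher, though not under TPM. What part such cells had in the antagonist values was not tested.

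Summed over each role, antagonists came to 47.0 FPKM in the library labelled KO and 57.4 FPKM in the library labelled WT, and ligands to 47.9 and 54.2 FPKM. Antagonist over ligand FPKM was thus 0.98 in the library labelled KO and 1.06 in the library labelled WT. Frizzled receptors summed to 70.4 and 77.3 FPKM. The whole set of 46 genes summed to 236.7 FPKM in the library labelled KO and 264.2 FPKM in the library labelled WT, 0.120% and 0.141% of all fragments, while the FPKM of all genes in the table summed 1.15 times as high in the library labelled KO.

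**Figure D3:**
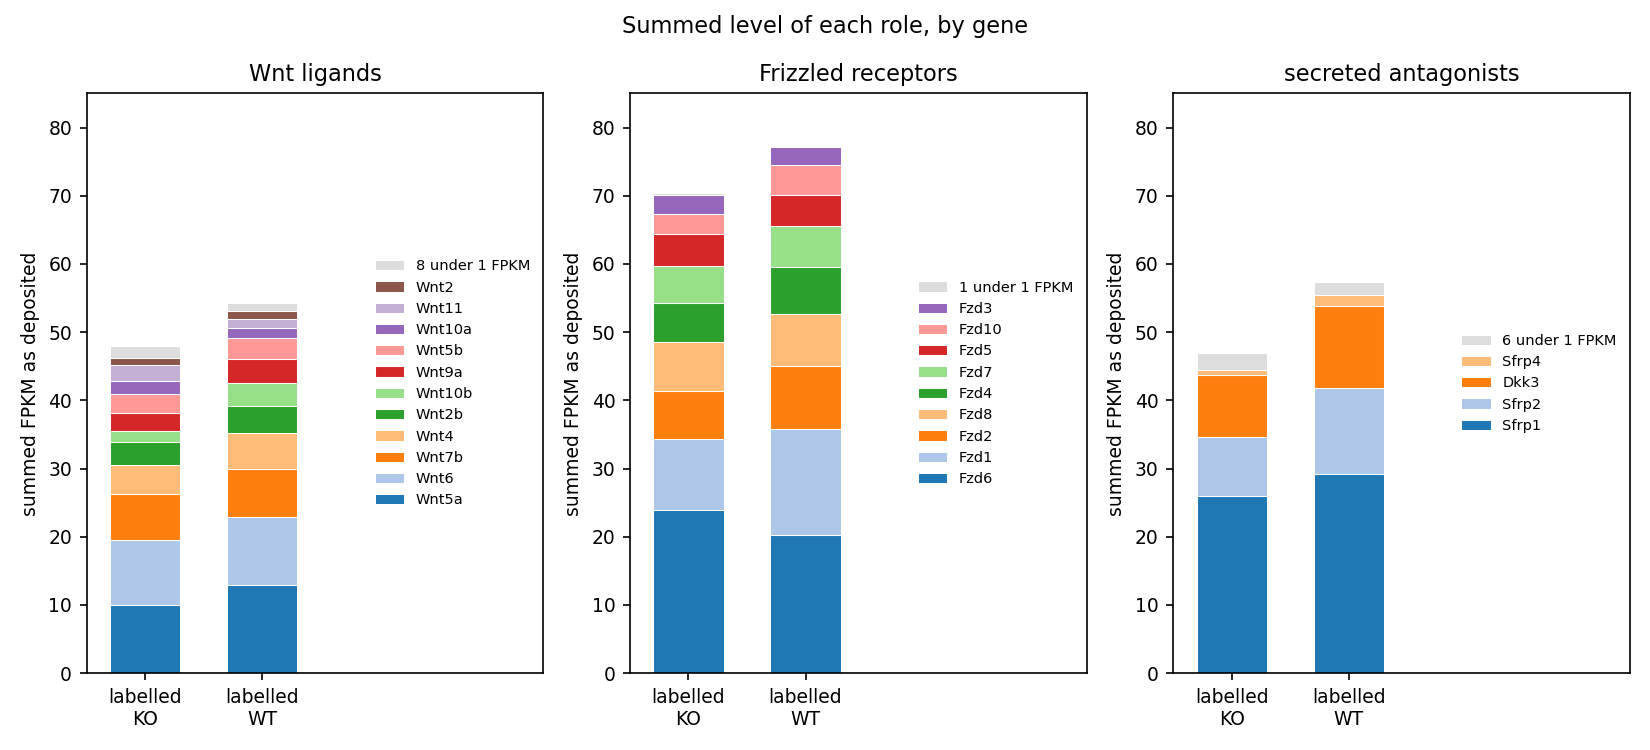
Summed deposited FPKM of Wnt ligands, Frizzled receptors and secreted antagonists in the libraries labelled KO (left bar of each panel) and WT (right bar), stacked by gene, with genes under 1 FPKM together in grey. The ligand bars reach 47.9 and 54.2 FPKM, the receptor bars 70.4 and 77.3 FPKM and the antagonist bars 47.0 and 57.4 FPKM.

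R-spondins, which act through Lgr4 to Lgr6, showed no difference beyond counting error as deposited, while Rspo1 was lower under TPM. Rspo1 was at 16.6 FPKM in the library labelled KO and 17.9 FPKM in the library labelled WT (ratio 0.928, 0.815 to 1.06), and Rspo3 at 4.77 and 4.30 FPKM (ratio 1.11, 0.909 to 1.36). Rspo1 made up 77.2% and 79.8% of the R-spondin FPKM. Axin2, a direct target of beta-catenin that feeds back on the pathway, was at 16.1 FPKM in the library labelled KO and 17.7 FPKM in the library labelled WT. Its ratio was 0.909 (0.842 to 0.982) and its log2 ratio −0.13, which is also the median of the set. An antisense gene over 3.80% of its exonic bases, Gm11670, was at 2.74 and 1.11 FPKM, and without a stated strand setting reads from the pair cannot be told apart.

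The 17 genes under 1 FPKM held 210 fragments in the library labelled KO and 161 in the library labelled WT. Of these genes, 4 were higher beyond counting error and 1 was lower, where 6.82% and 8.38% of the 5190 protein-coding genes with a mean under 1 FPKM and at least 1 fragment were. Wnt7a, a ligand of epithelia known from the female genital tract, had 32 fragments in the library labelled KO and 3 in the library labelled WT (0.71 and 0.067 FPKM), a ratio of 10.6 with an interval of 3.30 to 53.9. Dkk1, the classical LRP-binding antagonist, had 20 and 2 fragments (0.58 and 0.058 FPKM; ratio 9.90, 2.41 to 87.4). Both were at or under the detection limit of 3 fragments in the library labelled WT. On the +1 scale Wnt7a, at a log2 ratio of 0.68, was the one low gene of the set at least 1.5-fold higher and none was that much lower, where 1.52% and 1.02% of the low genes were. None was 2-fold higher or lower on that scale, where 0.27% and 0.0963% were.

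Wnt16 followed with 13 fragments in the library labelled KO and 2 in the library labelled WT (ratio 6.44, 1.46 to 58.7). Wnt3, with 8 and 1 fragments, had a ratio of 7.92 and an interval of 1.06 to 352, so its lower bound all but touched 1; it was named after its value was seen. The lower gene was Wnt9b, a ligand of the Wolffian duct and kidney, with 32 fragments in the library labelled KO and 51 in the library labelled WT (ratio 0.621, 0.386 to 0.986). Dkk1 thus differed in the opposite direction from the 4 measured antagonists, while of the 11 measured ligands 5 were lower, 1 was higher and 5 were not beyond counting error. The calls of Wnt7a, Dkk1, Wnt16 and Wnt9b held under TPM and that of Wnt3 did not. Of the 7 germ cell markers 5 were higher in each scaling, among them Prm2 at 54.1 and 5.21 FPKM in the libraries labelled KO and WT and Smcp at 31.9 and 4.33 FPKM. Ddx4 was lower, at 1.65 and 3.77 FPKM, and Sycp3 had a ratio of 0.560 that was not beyond counting error. Of the 10 epididymal genes, 9 were higher and 1 lower as deposited, and 7 were higher and 2 lower under TPM. Defb22 had the highest ratio of these, 10.2 (123 and 12.1 FPKM), while Lcn8 had 1.28, Gpx5 1.16 and Epcam 0.957. What part germ cells and epididymal epithelium had in the values of Wnt7a, Dkk1, Wnt16 and Wnt3 was not tested.

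**Figure D4:**
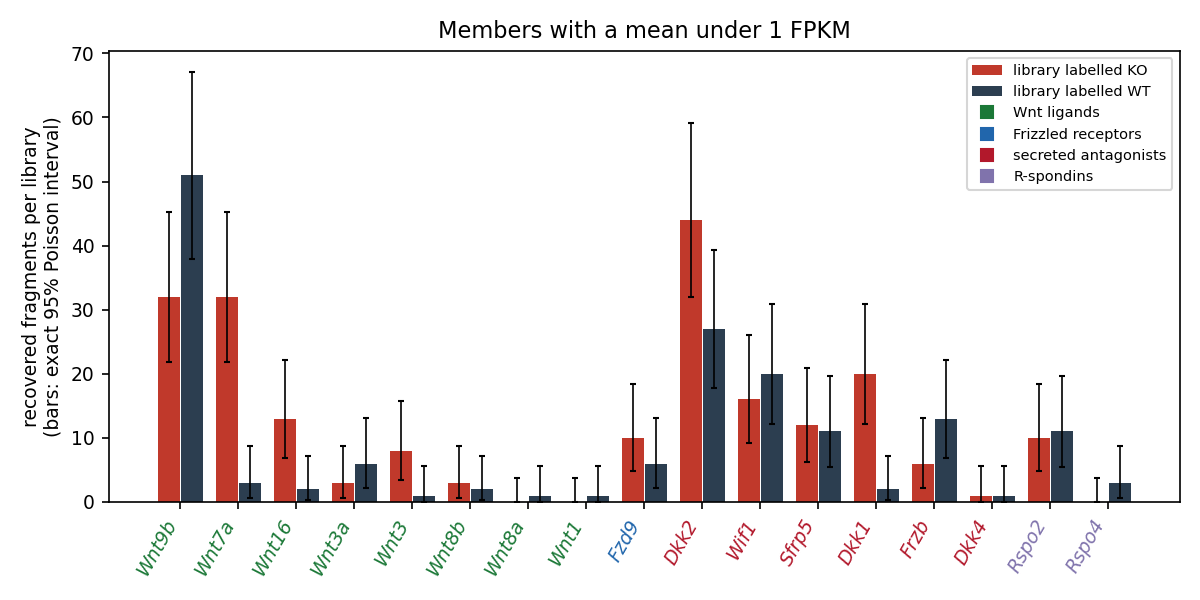
Recovered fragments of the 17 genes with a mean under 1 FPKM in the library labelled KO (left bar of each pair) and the library labelled WT (right bar), with exact 95% Poisson intervals. Wnt7a (32 and 3 fragments) and Dkk1 (20 and 2) show the widest gaps relative to their counts.

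For the other low genes a difference was not detectable at this depth. Dkk2 had 44 fragments in the library labelled KO and 27 in the library labelled WT, with an interval of 0.977 to 2.71. Wif1 had 16 and 20, Sfrp5, an antagonist that mature fat cells secrete, 12 and 11, Frzb 6 and 13, Fzd9 10 and 6 and Rspo2 10 and 11 fragments in the libraries labelled KO and WT. Wnt8a, Wnt8b, Wnt1, Dkk4 and Rspo4 had at most 3 fragments in either library. In the library labelled KO, 0 fragments allowed up to 0.088 FPKM for Wnt1 and Rspo4 and 0.12 FPKM for Wnt8a, by a limit of 3 counts.

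The rest of the pathway was described with 7 fixed lists, 72 genes in all, of which 63 were measured. The median log2 ratio of the 63 was −0.04, and on the +1 scale none reached 1.5-fold in either direction. The plain FPKM ratio was past that line for Lef1 (1.58) and Daam2 (0.637). Beyond counting error, 20 of the 63 were lower and 10 higher, where 17.6% and 24.6% of all measured genes were. Under TPM the split was 45 lower and 4 higher (Tcf7, Lef1, Ctnnbip1 and Celsr2), where 48.5% and 7.85% of all measured genes were, so the counts of these lists follow the scaling. Porcn, which attaches the lipid to Wnts, was at 5.31 FPKM in the library labelled KO and 4.14 FPKM in the library labelled WT (ratio 1.28), the one call among 3 measured genes of Wnt secretion and removal. Wls, the carrier of Wnts to the surface, was at 22.0 and 20.9 FPKM. Under TPM Porcn was no longer called and Wls was lower.

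Among 11 measured other receptors, 3 were lower and 1 higher, where 17.6% and 24.6% of all measured genes were. Under TPM 9 were lower and none higher, where 48.5% and 7.85% of all measured genes were. Adgra2 (11.7 FPKM in the library labelled KO and 15.0 FPKM in the library labelled WT) and Reck (10.1 and 12.8 FPKM), partners in recognising Wnt7 ligands on brain endothelium, were lower by like amounts, with log2 ratios of −0.33 and −0.31. Ptk7 was at 19.7 and 22.4 FPKM. Kremen1, a receptor of Dkk proteins, was higher as deposited, though not under TPM, at 12.3 and 10.4 FPKM. Among the other extracellular inhibitors Apcdd1 was lower, at 10.1 FPKM in the library labelled KO and 13.2 FPKM in the library labelled WT, and Sost and Cer1 had 0 fragments in both libraries.

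Inside the cell, the destruction complex and its partners were nearly level as deposited. Of 16 measured genes, 3 were higher and 2 lower, with a median of −0.0046. Ctnnb1, which encodes beta-catenin, was at 121 FPKM in both libraries, from 9010 fragments in the library labelled KO and 8901 in the library labelled WT. Under TPM, 12 of the 16 were lower, Ctnnb1 among them, and 1 was higher. Ctnnbip1, an inhibitor that keeps beta-catenin from TCF factors, was that gene, at 16.9 and 12.3 FPKM (log2 ratio 0.43). The nuclear factors divided, with 7 of 12 lower and 3 higher, and 9 lower and 2 higher under TPM. Of all measured genes, 17.6% were lower and 24.6% higher as deposited, and 48.5% lower and 7.85% higher under TPM. Lef1 (3.75 FPKM in the library labelled KO and 2.38 FPKM in the library labelled WT, ratio 1.58) and Tcf7 (43.8 and 31.8 FPKM, ratio 1.38) were higher, under TPM too. Tcf7l1 (8.02 and 9.79 FPKM) and Tcf7l2 (1.36 and 1.86 FPKM), the other genes of that factor family, were lower.

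Canonical targets, beside Axin2, divided as well. Of 14 measured, 4 were lower and 2 higher, with a median of −0.0087, and under TPM 8 were lower and 2 higher. The 2 higher were Tcf7 and Lef1, which are in both lists. Myc was at 10.3 FPKM in the library labelled KO and 13.5 FPKM in the library labelled WT, Sp5 at 4.69 and 6.05 FPKM and Nkd1, like Axin2 a feedback inhibitor, at 15.4 and 18.2 FPKM. Of the 10 measured planar cell polarity genes, 4 were lower and 2 higher, led by Daam2 (3.16 and 4.96 FPKM, log2 ratio −0.52) and Celsr2 (8.20 and 6.43 FPKM, 0.31). Under TPM 7 of these 10 were lower and 1 higher. Of all measured genes, 17.6% were lower and 24.6% higher as deposited, and 48.5% lower and 7.85% higher under TPM.

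**Figure D5:**
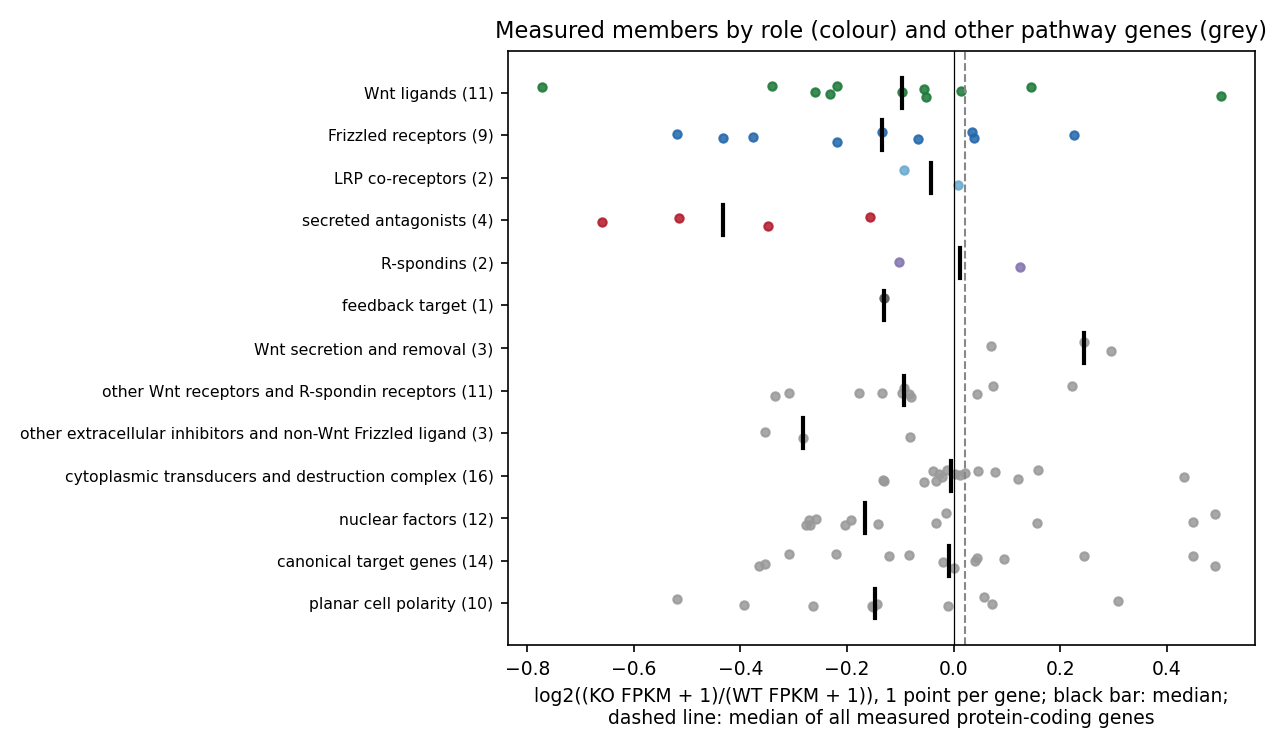
Log2((KO + 1)/(WT + 1)) of FPKM for measured genes, 1 point per gene, by role within the set (colour) and in 7 further pathway lists (grey), with the number of genes in parentheses and the median as a black bar. The antagonists have a median of −0.43 and all 4 points below 0, while cytoplasmic transducers centre near 0.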

How the data were processed

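RNA was sequenced in 1 library per genotype, and the authors' FPKM values, 1 for each gene in each library, were used as deposited. The submitters' processing notes name HISAT2 (version 2.0.5) and 2 builds, mm10 and hg38, while the counting program and its strand setting are not given here. Coordinates are the table's, and 45 of the 46 genes had the same ones in GENCODE M21 (GRCm38).

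Fragments per gene were recovered from FPKM and gene length: 100% of values above 0 came out whole within 0.01 of a fragment. A fragment on a 1 kb gene was worth 0.0699 FPKM in the library labelled KO and 0.0706 FPKM in the library labelled WT. The FPKM denominators differed 1.01-fold between libraries and the fragment totals 1.08-fold, so the deposited values carry a scaling other than the totals. Ratios are KO over WT with exact 95% Clopper-Pearson intervals on fragments, and single levels have exact Poisson intervals. They cover counting error only, since each genotype has 1 library. No molecular identifiers were stated for the reads, so fragments that are copies of each other may be counted apart. The pseudocount was 1 FPKM, the filter a mean of at least 1 FPKM and the fold line 1.5.

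The set and gene lists were chosen with earlier results of these data known. Every measured gene of the set is named, lower ones from 10 fragments in 1 library, and up to 3 genes per direction of each pathway list. Wnt3, Wnt3a and Wnt1 were named as neighbours of other Wnt genes. Outside that rule, the call of Wnt3 and the genes Wnt8a, Wnt8b, Dkk4, Rspo4, Ctnnb1, Tcf7l1 and Nkd1 were named after their values were seen. Of the set, 8 genes share exonic bases with another annotated gene, from 3.15% (Fzd6) to 17.8% (Fzd5), and the overlapping genes were at most at 2.74 FPKM. The calculation was tested on simulated data. Python 3.11.15, pandas 2.3.3 and SciPy 1.17.1 were used.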

Additional observations from a re-analysis of the deposited data

How the results depend on the processing

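With other settings the median log2 ratio of the set stayed below 0, from −0.31 (rescaled to TPM) to −0.08 (no filter on low values). Of the 39 genes tried, those called beyond counting error as deposited kept their direction. A pseudocount cannot turn a sign, so only rescaling to TPM or to total fragments could have reversed one. Of the measured genes, 5 changed sign under TPM and 4 after dividing by total fragments, none of them called as deposited. The count at least 1.5-fold higher, 0 as reported, was 1 with a pseudocount of 0.1 FPKM (Wnt11) and 1 with no filter (Wnt7a). Of all genes, 4.16% and 2.43% were that much higher in those settings. The count at least 1.5-fold lower, 2 as reported, was 0 with a pseudocount of 5 FPKM and 1 with a mean of at least 2 FPKM (fewer genes tested). It was 5 after rescaling to TPM (with Fzd1, Fzd10 and Sfrp2) and 4 after dividing by total fragments (with Fzd1 and Sfrp2). Of all genes, 0.359%, 1.76%, 4.67% and 3.09% were that much lower in those settings, in the same order. The count higher beyond counting error, 2 as reported, was 6 with no filter, 1 with a mean of at least 2 FPKM and 1 under TPM. Of all genes, 19.6%, 26.4% and 7.85% were higher there. The count lower ran from 14 (mean of at least 2 FPKM) to 21 (TPM), where 17.3% and 48.5% of all genes were lower. Settings relative to the median of all genes were added after the data were seen, and by construction they take out any scaling of a whole library. The counts beyond counting error were then 2 higher and 15 lower under each of the 3 scalings. Of all genes, 21.3% were higher and 20.5% to 20.6% lower. No paired analysis was possible because each genotype has 1 library, and for the same reason no replicate could be left out. Depth limits the genes under 1 FPKM, where a ratio near 10 rested on 2 or 3 fragments in the library labelled WT.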
